A study of Mus musculus with 4 samples.

Results

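The expression of 10 heat-shock protein and co-chaperone genes is described here in MLL-AF9 leukemic cells, library by library: Hspa1a, Hspa1b, Hspa8, Hsp90aa1, Hsp90ab1, Hspb1, Hsph1, Dnajb1, Dnajb4 and Hspe1. They are 10 of the 23552 genes in the expression table and were taken from it by their Ensembl identifiers. The list was chosen with the values of these libraries known, so the comparison of the groups is given for these genes as a description, with counts of calls but no p-value for a single gene. All libraries came from C57BL/6 mice with MLL-AF9-induced acute myeloid leukemia, and from bone marrow cells enriched for c-Kit, a surface receptor of immature blood cells, when the animals were moribund. The control group carried control-eGFP overexpression (replicates 3 and 4), and the SUV-OE group carried Suv39h1-eGFP overexpression (replicates 2 and 3). SUV39H1 is an enzyme that methylates histone H3 at lysine 9, and the question behind the comparison was which transcripts change when its level is restored in these cells. All 4 libraries were labelled as RNA-seq batch 2. In the study the cells were transduced with lentivirus, sorted for eGFP and transplanted into sublethally irradiated recipients, whose own marrow cells can persist. No label says whether the libraries of a group came from separate mice, so spreads and p-values measure only the differences between these libraries.

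Heat-shock proteins are chaperones, which bind unfolded proteins and help them fold, refold or be degraded. HSP70 proteins work in cycles of ATP hydrolysis that J-domain proteins such as DNAJB1 start and that exchange factors such as HSPH1 end, and HSP90 takes over later folding steps of kinases and receptors. Some of these genes (Hspa8 and Hsp90ab1) are transcribed at high levels in nearly all cells. Others (Hspa1a and Hspa1b) are nearly silent until heat or other stress activates heat-shock factor 1. This factor binds heat-shock elements built of inverted GAA repeats.

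RNA-seq reads, recovered from the steps between the deposited values, numbered 20085762 to 23561149 per library. Expression is given as FPKM, fragments per kilobase of exon scaled to a total for each library, so levels of different genes can be set beside each other. The totals by which the authors divided, also recovered, were 16873770 to 19453058, below the summed reads of each library, and how they were formed is not given in the sources used here. A count of 3 reads on 1 kb of exons corresponds to 0.154 to 0.178 FPKM, depending on the library. The overexpressed gene Suv39h1 stood at an FPKM of 12.4 in each control and rose to 75.3 and 81.2 with overexpression. The 9 markers of leukemic myeloid progenitors, among them Kit, Mpo and Elane, were detected in every library. Their summed FPKM was 5052 and 5667 in the controls against 3597 and 4364 in SUV-OE. Ctsg made up a large part of these sums, with 2236 and 2787 in the controls against 1226 and 1353 in SUV-OE. The mean was higher in SUV-OE for 4 of the 9 markers. Control replicate 3 stood apart from the other libraries in immediate-early genes, in crystallin genes and in the summed erythroid markers, whose values are given further on, and it had 3707 genes at 0, where the other libraries had 2182 to 2465.

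Promoter sequences from RefSeq (build GRCm38.p6) were held for 7 of the 10 genes. They are shown because the genes with the widest spread between libraries can be compared here with the element that heat-shock factors bind. The 250 bases before the start site of Hspa1a (chr17:34972157-34972406, minus strand), Hspa1b (chr17:34959239-34959488, minus strand) and Hspb1 (chr5:135887669-135887918, plus strand) are printed 5′ to 3′, with each pair of facing heat-shock units, GAANNTTC or TTCNNGAA, in capitals.
Hspa1a: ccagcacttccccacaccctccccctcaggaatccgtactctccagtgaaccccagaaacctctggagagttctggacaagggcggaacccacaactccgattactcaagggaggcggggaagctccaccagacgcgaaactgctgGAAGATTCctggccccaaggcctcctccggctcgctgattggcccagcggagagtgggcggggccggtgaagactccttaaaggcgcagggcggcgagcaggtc
Hspa1b: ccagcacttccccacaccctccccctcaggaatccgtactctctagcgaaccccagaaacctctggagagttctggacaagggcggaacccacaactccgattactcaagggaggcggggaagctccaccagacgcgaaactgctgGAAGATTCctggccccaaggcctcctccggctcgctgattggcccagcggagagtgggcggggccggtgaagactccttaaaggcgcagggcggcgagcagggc
Hspb1: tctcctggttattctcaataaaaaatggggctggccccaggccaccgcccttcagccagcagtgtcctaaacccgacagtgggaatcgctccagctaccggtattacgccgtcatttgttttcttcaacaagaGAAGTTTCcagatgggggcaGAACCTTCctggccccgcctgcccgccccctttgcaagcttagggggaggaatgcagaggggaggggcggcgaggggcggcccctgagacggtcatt
The Hspa1a and Hspa1b stretches differed in 3 of 250 bases (98.8% identical), and both held the pair at bases -104 to -97 from the start. Hspb1 held a pair at -117 to -110 and another at -97 to -90.

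For Hsph1 (chr5:149636357-149636374, minus strand, pair at -33 to -26) and Hspe1 (chr1:55088054-55088081, plus strand, overlapping pairs from -89 to -72), only the element and its flanks are printed.
Hsph1: aatctTTCTCGAAggctc
Hspe1: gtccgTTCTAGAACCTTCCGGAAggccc
The pair stood in the 250 bases before the RefSeq start of 5 of the 7 genes, against 12.8% of 32851 promoters of the same length. Dnajb1 and Dnajb4 had no match in these bases. Among the other chaperone genes listed further on, 11 of 97 promoters (11.3%) held it. A longer motif, the pair GAANNTTC followed directly by NNGAA and searched on both strands, was found in Hspe1 alone among the 7 and in 0.466% of all promoters. Each 8-letter pair is its own reverse complement, the longer motif contains it, and the pair was searched after the longer motif had found so few genes. A match describes these letters only and is not a binding measurement. For Hsph1, Dnajb4 and Hspe1 the RefSeq start lay 40, 219 and 16 bases inside the gene as annotated in GENCODE M21. For Dnajb1 it lay 18 bases before that gene. The Hsph1 pair thus lay before the RefSeq start but inside the GENCODE gene. Most of the Dnajb4 bases searched also lay inside the GENCODE gene, so their lack of a match says little about the bases before it. Hspa8, Hsp90aa1 and Hsp90ab1 were the genes without a sequence.

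Hspa1a and Hspa1b, which encode the stress-inducible cytosolic HSP70 proteins, were the genes with the largest differences. They lie 9951 bases apart on chromosome 17 (build mm10, minus strand), Hspa1b at chr17:34956436-34959238 and Hspa1a at chr17:34969190-34972156, and each has 1 exon. The FPKM of Hspa1a was 1.37 and 0.260 in control replicates 3 and 4, and 5.62 and 77.4 in SUV-OE replicates 2 and 3. These values rest on 79 and 13 reads in control and on 296 and 4085 reads in SUV-OE. Neither SUV-OE library fell into the control range, yet SUV-OE replicate 3 was 13.8-fold above replicate 2. For Hspa1b the FPKM was 2.29 and 0.782 in the controls against 18.0 and 166 in SUV-OE, from 125, 37, 897 and 8289 reads. The groups again did not overlap, and SUV-OE replicate 3 was 9.22-fold above replicate 2. In both genes control replicate 3 was also above control replicate 4, by 5.27-fold for Hspa1a and 2.93-fold for Hspa1b. On the log2(FPKM + 1) scale, which understates changes of low genes, SUV-OE was above control by 3.72 (SE 1.19) for Hspa1a and by 4.54 (SE 1.06) for Hspa1b. The difference between the SUV-OE libraries on that scale was 3.57 for Hspa1a, close to the difference between the groups, and 3.14 for Hspa1b. Of the 13736 genes tested, 0 had a larger difference between the SUV-OE libraries than Hspa1a, and 1 had a larger one than Hspa1b. The value of each gene therefore depended on the library: against both controls, SUV-OE replicate 2 alone gave 1.94 for Hspa1a and 2.97 for Hspa1b, and SUV-OE replicate 3 alone gave 5.50 and 6.11.

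The levels of these neighbours are uncertain relative to each other, since 47.1% of the 100-base windows of the Hspa1a transcript also occur in Hspa1b and 49.9% of those of Hspa1b occur in Hspa1a. The ratio of Hspa1a to Hspa1b FPKM was 0.597 and 0.332 in the controls against 0.312 and 0.466 in SUV-OE, so Hspa1b was the higher gene in every library. How reads that fit both genes were assigned is not given in the sources used here: the methods name Cufflinks, which estimates such shares, while the values of both genes are whole reads at their full exon length. Hspa1a also overlaps Gm20481 on the opposite strand over 2225 bases, and the library kit does not mark strand. Hspa1l, the testis-type HSP70 gene that starts 546 bases from Hspa1a on the other strand, had an FPKM of 0.333 and 0.647 in the controls against 0.456 and 0.455 in SUV-OE, and so did not share the high value of SUV-OE replicate 3.

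**Figure D1:**
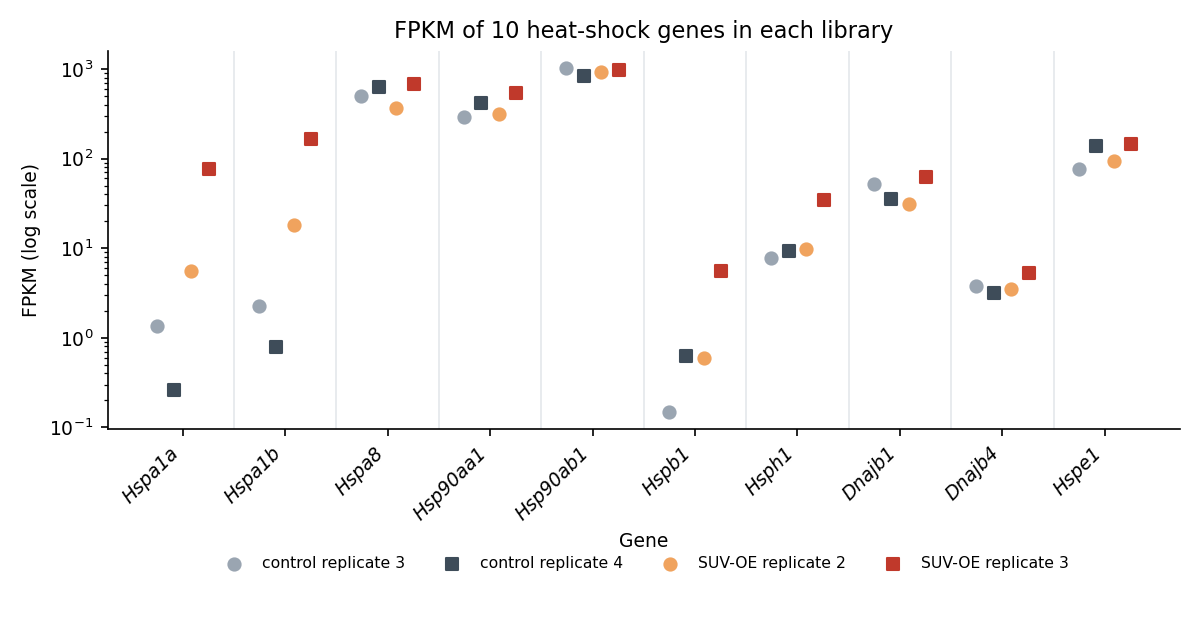
FPKM of the 10 genes on a log axis, with 1 point per library (circles and squares, grey for control and orange or red for SUV-OE). SUV-OE replicate 3, the red square, was the highest library for every gene except Hsp90ab1, and for Hspa1a it stood at 77.4 against 5.62 in SUV-OE replicate 2.

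Hspa8 (chr9:40800984-40810087, plus strand) encodes HSC70, the constitutive cytosolic HSP70 that also strips clathrin from vesicles. Its FPKM was 494 and 633 in the controls against 366 and 679 in SUV-OE. The groups overlapped, with the lowest and the highest library both in SUV-OE, 1.85-fold apart. The mean log2 difference was -0.16 (SE 0.36), and its sign turned with the library left out: -0.61 with SUV-OE replicate 2 alone and 0.28 with SUV-OE replicate 3 alone. Reads of Hspa8 are uncertain as well, because 63.4% of its transcript windows occur in 9 other genes, mostly Gm15459. Taking Hspa8, Hspa1a and Hspa1b as the cytosolic HSP70 pool, Hspa1a and Hspa1b made up 0.736% and 0.164% of its summed FPKM in the controls against 6.07% and 26.4% in SUV-OE. The constitutive gene thus remained the larger share of the pool in all 4 libraries.

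Hsph1 (chr5:149614287-149636376, minus strand) encodes HSP105, an HSP110 protein that exchanges nucleotide on HSP70. Its FPKM was 7.76 and 9.39 in the controls against 9.76 and 34.8 in SUV-OE. The groups did not overlap, but SUV-OE replicate 2 was only marginally above control replicate 4, and SUV-OE replicate 3 was 3.56-fold above replicate 2. The log2 difference of 1.04 (SE 0.57) became 0.17 with SUV-OE replicate 2 alone and 1.91 with SUV-OE replicate 3 alone. No 100-base window of Hsph1 was shared with another gene, and its values rest on 1097 to 4491 reads. Of all tested genes, 42 had a larger difference between the SUV-OE libraries.

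The J-domain genes showed the same order within SUV-OE at smaller size. Dnajb1 (chr8:83608193-83612653, plus strand), which encodes HSP40, the partner of inducible HSP70, had an FPKM of 51.4 and 35.8 in the controls against 31.1 and 62.5 in SUV-OE. Its highest and lowest libraries were both SUV-OE, 2.01-fold apart, and the group means nearly coincided, with a log2 difference of 0.04 (SE 0.37). Dnajb4 (chr3:152178511-152210302, minus strand), which encodes another class B J protein, had an FPKM of 3.82 and 3.13 in the controls against 3.54 and 5.25 in SUV-OE. SUV-OE replicate 2 lay between the control libraries, and the log2 difference of 0.26 (SE 0.20) became 0.02 with SUV-OE replicate 2 alone and 0.49 with SUV-OE replicate 3 alone. Neither gene shared a 100-base window with another gene.

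Among the cytosolic HSP90 genes, Hsp90ab1 (chr17:45567775-45573271, minus strand), the constitutive form, was the most stable of the 10 within SUV-OE. Its FPKM was 1028 and 845 in the controls against 927 and 968 in SUV-OE, so both SUV-OE libraries lay inside the control range. The log2 difference between groups was 0.02 (SE 0.25), and that between the SUV-OE libraries was 0.06. Hsp90aa1 (chr12:110690605-110702728, minus strand), the stress-responsive form, had an FPKM of 294 and 422 in the controls against 317 and 545 in SUV-OE. Its groups overlapped, with a log2 difference of 0.24 (SE 0.35). The ratio of Hsp90aa1 to Hsp90ab1 FPKM was 0.286 and 0.499 in the controls against 0.342 and 0.563 in SUV-OE, so it differed between the replicates of both groups. Of the Hsp90aa1 windows, 47.5% occur in other genes, mostly Gm12346, whereas none of those of Hsp90ab1 do.

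Hspb1 (chr5:135887919-135889563, plus strand), which encodes the small heat-shock protein HSP25 that holds unfolded proteins without ATP, was close to the detection limit outside 1 library. Its FPKM was 0.150 and 0.632 in the controls against 0.601 and 5.56 in SUV-OE, from 3, 11, 11 and 102 reads. SUV-OE replicate 2 lay inside the control range, and SUV-OE replicate 3 was 9.26-fold above it. The log2 difference was 1.24 (SE 0.69), which became 2.22 with a pseudocount of 0.1, 2.50 with limma-voom on the recovered reads and 2.26 with SUV-OE replicate 3 alone. Hspb1 passed the filter, a mean of at least 0.5 FPKM over the 4 libraries, through SUV-OE replicate 3: without that library it was not tested. Of its windows, 42.7% occur in the pseudogene Hsp25-ps1.

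Hspe1 (chr1:55088132-55091307, plus strand) encodes HSP10, the lid of the mitochondrial chaperonin HSP60. Its FPKM was 75.9 and 136.9 in the controls against 93.7 and 143.8 in SUV-OE. The groups overlapped, with control replicate 3 lowest and SUV-OE replicate 3 highest, and with a difference between the control libraries of 0.84 on the log2 scale, one between the SUV-OE libraries of 0.61, and a log2 difference between groups of 0.19 (SE 0.36). Hspd1, the gene of HSP60 itself, starts head to head with Hspe1, and the annotated genes overlap by 112 bases. Its FPKM was 134 and 175 in the controls against 138 and 193 in SUV-OE, in the same order of libraries as Hspe1. Of the Hspe1 windows, 22.4% occur in other genes. The ratio of Hspe1 to Hspd1 FPKM was 0.564, 0.784, 0.678 and 0.746 in control replicates 3 and 4 and SUV-OE replicates 2 and 3.

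Among the 10 genes, 0 were DEGs, that is, had a limma adjusted p-value under 0.05 (Benjamini-Hochberg over 13736 genes) and a log2 fold change of 1 or more in size, where 1.22% of all tested genes were. Limma gave 2 of the 10 an unadjusted p under 0.05, as it did 20.7% of all tested genes, and limma-voom on the recovered reads also called 0, with 2 at an unadjusted p under 0.05, where it called 4.72% of 14288 genes. All 10 passed the filter on low values, Hspb1 as described. Fold changes were positive for 9 and negative for 1, with a median of 0.25 against -0.02 over all tested genes. The SUV-OE libraries both exceeded the controls for 3 of the 10 (Hspa1a, Hspa1b and Hsph1), where 25.4% of all tested genes did, and below them for 0, where 28.4% did. Since the list was chosen on this comparison, nothing is read from these counts.

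**Figure D2:**
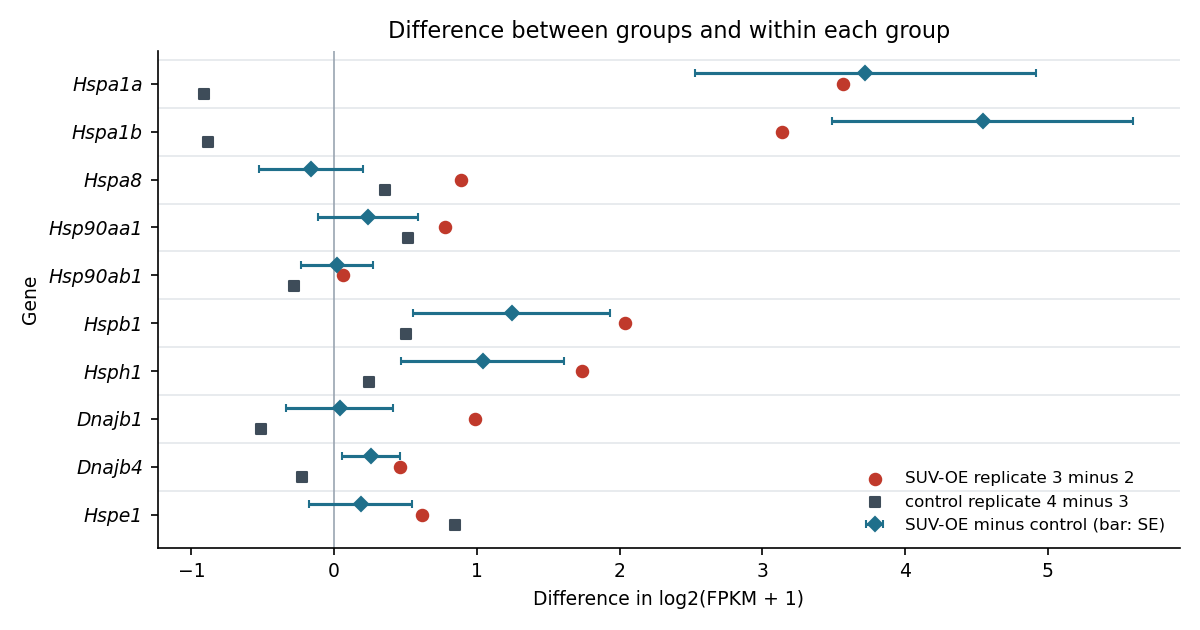
Differences in log2(FPKM + 1) for each gene: SUV-OE minus control with its standard error (diamonds), SUV-OE replicate 3 minus 2 (circles) and control replicate 4 minus 3 (squares). The circles lie right of 0 for all 10 genes, from 0.06 for Hsp90ab1 to 3.57 for Hspa1a, whereas the squares fall on both sides of 0.

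The spread within each group is also a description, since the 10 genes were chosen with the library values known and Hspb1 passed the filter only through SUV-OE replicate 3. SUV-OE replicate 3 was above replicate 2 in 10 of the 10 genes, where it was in 50.2% of all tested genes, and the median difference was 0.94 on the log2 scale against 0.00 over all tested genes. SUV-OE replicate 3 was the highest of the 4 libraries in 9 of the 10, where it was the highest in 18.5% of all tested genes. Between the controls, replicate 4 was above replicate 3 in 5 of the 10, and the median absolute difference was 0.51 against 0.22 over all tested genes. The summed FPKM of the 10 genes was 1959 and 2086 in the controls against 1772 and 2687 in SUV-OE, or 0.549%, 0.503%, 0.520% and 0.720% of all FPKM in that order. The SUV-OE libraries thus held both the lowest and the highest sum. Leaving out SUV-OE replicate 3 turned the fold change of Hsp90aa1, Hsp90ab1, Dnajb1 and Hspe1 negative, at -0.15, -0.01, -0.45 and -0.12. As these are bulk samples, more cells with a transcript and more transcript per cell cannot be told apart.

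**Figure D3:**
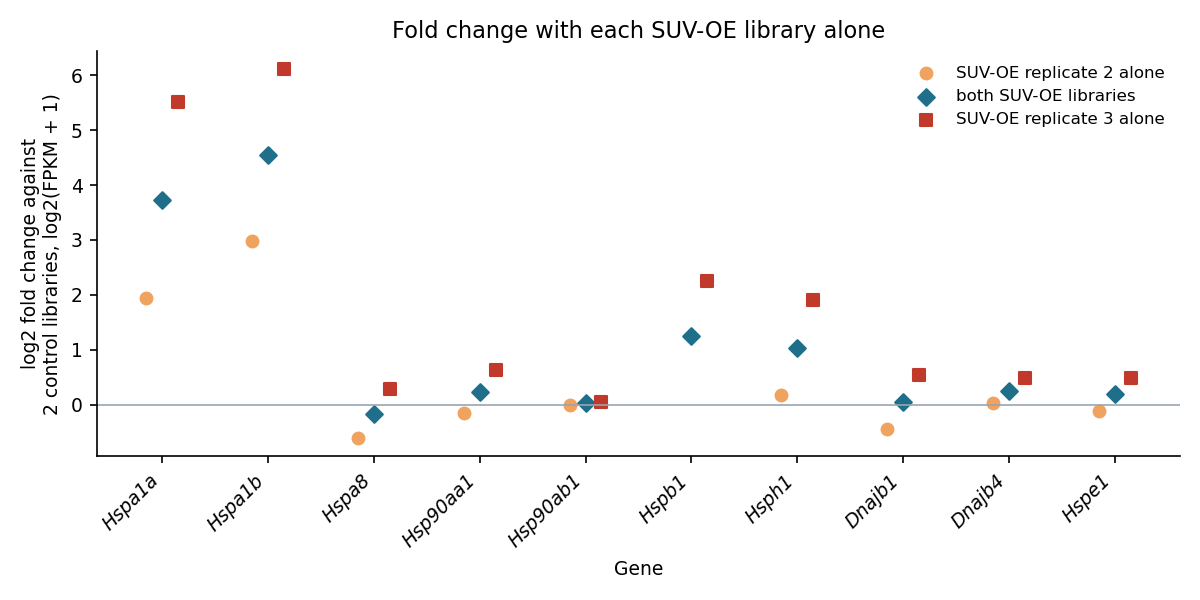
Log2 fold change of each gene against the 2 control libraries with both SUV-OE libraries (diamonds), with SUV-OE replicate 2 alone (circles) and with SUV-OE replicate 3 alone (squares); Hspb1 has no circle because it fell under the filter. With SUV-OE replicate 2 alone, Hspa1a stood at 1.94 instead of 3.72, Hspa1b at 2.97 instead of 4.54 and Hsph1 at 0.17 instead of 1.04.

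The rest of the chaperone network was taken from 10 lists written from general knowledge, with 122 genes, of which 119 were in the table and 105 were tested. The lists held other HSP70 and HSP110 genes, other J proteins, small heat-shock proteins, co-chaperones of HSP70 and HSP90, chaperones of the cytosol, the mitochondria and the endoplasmic reticulum, and heat-shock factors. Of these, 32 had a positive and 73 a negative fold change, with a median of -0.12, beside 6458 positive and 7278 negative over all tested genes. By limma 1 gene, Dnajc25, was a DEG, and 11 of the 105 had an unadjusted p under 0.05, where 1.22% and 20.7% of all tested genes did. Dnajc25, which encodes a membrane-bound class C J protein, had an FPKM of 10.9 and 11.9 in the controls against 2.37 and 2.28 in SUV-OE. It fell by 1.90 on the log2 scale (SE 0.12, limma adjusted p = 0.0146), and the groups did not overlap. This call was lost without the filter on low values and when any 1 of the 4 libraries was left out, as were all 168 DEGs. Dnajc25 overlaps Gm20503 on the same strand over 22364 bases of its span, and how many of its reads fall in shared exons was not tested. Limma-voom called 3 genes, Dnajc25 and, chosen for naming after their values were seen, Dnajb5 and Dnajc6. Dnajb5 had an FPKM of 0.771 and 0.869 in the controls against 1.68 and 1.68 in SUV-OE, and Dnajc6, which limma did not test, had 0.235 and 0.140 in the controls against 0.649 and 0.609 in SUV-OE.

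The order of the SUV-OE libraries extended to several of these lists at a lower size. SUV-OE replicate 3 was above replicate 2 in 77 of the 105 genes (73.3%), with a median difference of 0.15. The cytosolic chaperonin and prefoldin genes, which fold actin and tubulin, had this order in 14 of 14, but all 14 had a negative fold change (median -0.17, 0 DEGs by limma or limma-voom, 1 at an unadjusted p under 0.05 by limma), and 12 of the 14 were highest in control replicate 4. Their lowest fold change was that of Tcp1, a chaperonin subunit, at -0.51 (SE 0.16, limma adjusted p = 0.188), and their highest that of Vbp1, a prefoldin subunit, at 0.00 (SE 0.15). Chaperones of the endoplasmic reticulum had SUV-OE replicate 3 above replicate 2 in 14 of 15, with a median difference of 0.30. Hspa5, which encodes the lumenal HSP70 called BiP, had the lowest fold change of that list, -0.53 (SE 0.24, limma adjusted p = 0.296), and Hsp90b1, the lumenal HSP90, the highest, 0.19 (SE 0.27). The HSP90 co-chaperones had the order in 13 of 16 (median difference 0.19), from Fkbp5 at a fold change of -0.74 (SE 0.24, limma adjusted p = 0.196) to Ahsa2 at 0.31 (SE 0.15). The class C J proteins had it in 11 of 23, and the mitochondrial chaperones and proteases in 4 of 8.

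**Figure D4:**
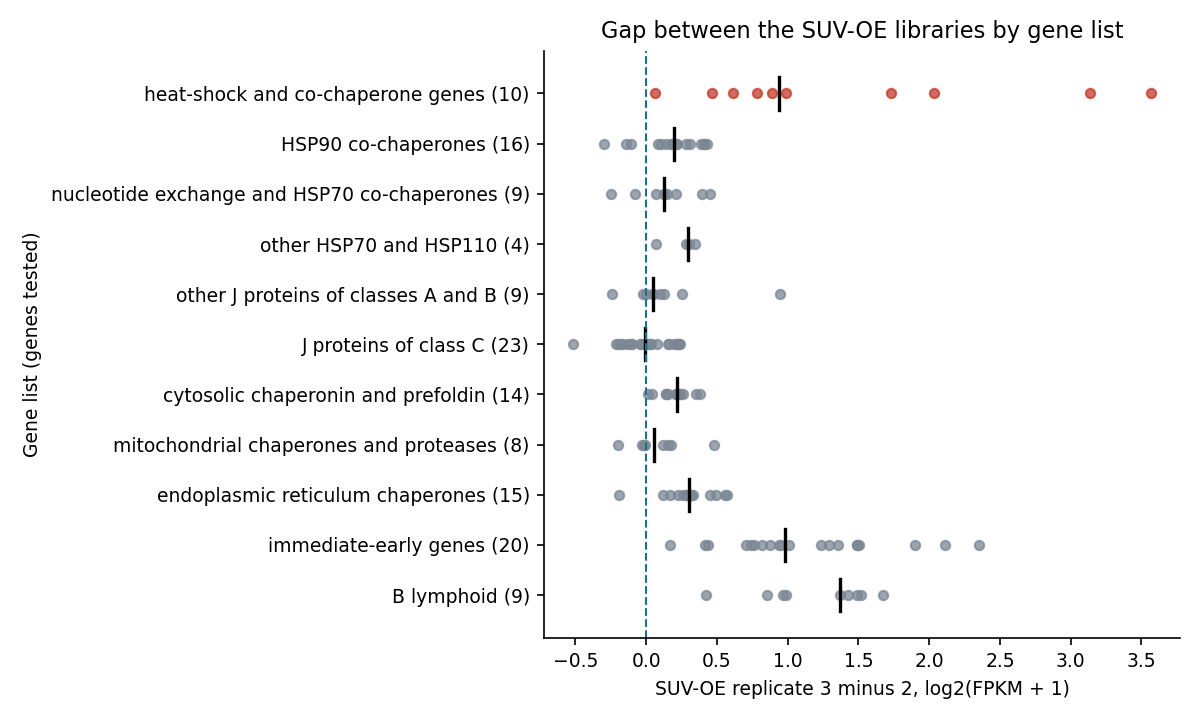
SUV-OE replicate 3 minus replicate 2 in log2(FPKM + 1) for each tested gene of each list, with the list median as a black bar and the median of all tested genes, 0.00, as a dashed line. The 10 heat-shock genes have a median of 0.94, beside 0.15 for the other chaperone genes together, 0.98 for the immediate-early genes and 1.37 for the B lymphoid markers.

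Within the remaining lists, Bag3, a stress-inducible exchange factor of HSP70, had the highest fold change of its list, with an FPKM of 6.04 and 4.42 in the controls against 6.27 and 8.94 in SUV-OE (0.46, SE 0.22, limma adjusted p = 0.316). Stub1, the ubiquitin ligase that marks HSP70 clients, had the lowest, -0.61 (SE 0.31, limma adjusted p = 0.344). Dnaja1, a class A J protein and a partner of HSP70, was noticed after its values were seen: its FPKM was 32.7 and 36.1 in the controls against 25.6 and 50.2 in SUV-OE. That is the order of libraries seen for Hspa8, and its difference between the SUV-OE libraries, 0.95, was above that of every other gene of the 10 lists that was tested. In the HSP70 and HSP110 list the fold changes ran from -0.20 for Hspa4 (SE 0.11, limma adjusted p = 0.390) to 0.28 for Hspa4l (SE 0.17, limma adjusted p = 0.403), and SUV-OE replicate 3 was above replicate 2 in 4 of 4 tested genes. Among J proteins of classes A and B, Dnajb13 had the lowest fold change (-0.48, SE 0.11, limma adjusted p = 0.127) and Dnajb5 the highest (0.56, SE 0.15, limma adjusted p = 0.149). Dnajc28 had the highest value of class C at 0.31 (SE 0.17). Among the mitochondrial genes the values ran from -0.56 for the protease subunit Clpp (SE 0.13, limma adjusted p = 0.125) to 0.09 for Hspd1 (SE 0.24), and 7 of 8 were negative.

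The other small heat-shock proteins did not follow Hspb1. SUV-OE replicate 3 was above replicate 2 in 1 of the 4 tested. Cryaa, the alpha A crystallin gene with the highest fold change of this list (2.02, SE 1.47, limma adjusted p = 0.489), was listed at 0 in control replicate 3 and had an FPKM of 22.3 in control replicate 4 and of 18.2 and 19.2 in SUV-OE. Cryab, the alpha B crystallin gene, named after its values were seen, had 0.0434 in control replicate 3 and 3.85, 4.18 and 3.75 in the other libraries. For both crystallin genes control replicate 3 was the library apart, and the other control library matched SUV-OE. Both overlap a gene on the opposite strand. Hspb6 had the lowest fold change of the list, -0.67 (SE 0.15, limma adjusted p = 0.121).

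Of the genes of heat-shock factors and their regulators, 3 of 5 were tested and 0 were DEGs by limma or limma-voom, with 0 at an unadjusted p under 0.05 by limma. Hsf1, the main activator of the stress response, had an FPKM of 28.6 and 23.2 in the controls against 28.0 and 30.5 in SUV-OE, and its groups overlapped (log2 difference 0.17, SE 0.15). Hsf2 had an FPKM of 5.15 and 5.87 in the controls against 5.78 and 6.54 in SUV-OE (log2 difference 0.14, SE 0.13). Hsbp1, an inhibitor of HSF1, had a log2 difference of -0.14 (SE 0.18). Hsf4 and Hsf5 were under the filter, and Hsf4 had 0.264 and 0.135 FPKM in the controls against 0.354 and 0.546 in SUV-OE. These are transcript levels, and HSF1 activity is set largely on the protein.

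Other measures moved with the order of the SUV-OE libraries. The 20 immediate-early genes, such as Fos, Jun and Egr1, which respond quickly to stimulation, were higher in SUV-OE replicate 3 than in replicate 2 in 20 of 20, and higher in control replicate 3 than in control replicate 4 in 20 of 20. Their summed FPKM was 2103 and 356.6 in the controls against 241.9 and 552.0 in SUV-OE, so the highest library was control replicate 3 and not SUV-OE replicate 3. By limma 0 of the 20 were DEGs and 0 had an unadjusted p under 0.05, and limma-voom called 0. Fosb had their lowest fold change, -3.15 (SE 1.26, limma adjusted p = 0.256), and Egr3 their highest, 0.15 (SE 0.54). Control replicate 3, the highest library for immediate-early genes, had 3.66 FPKM of Hspa1a and Hspa1b together, against 243.8 in SUV-OE replicate 3. The part of this difference in the heat-shock values was not tested.

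Markers of other blood cells also differed. The 9 B lymphoid markers were higher in SUV-OE replicate 3 than in replicate 2 in 9 of 9 and had a higher mean in SUV-OE in 8 of 9. Their summed FPKM was 18.6 and 28.0 in the controls against 43.9 and 105.7 in SUV-OE. Most of the control sums was Cd79b, the marker without a higher mean, at 17.4 and 25.0 in the controls against 17.2 and 23.4 in SUV-OE. The sums thus understate the change of the other B lymphoid markers. No B lymphoid marker was at 0 in SUV-OE, and limma called 0 of the 9, with 8 at an unadjusted p under 0.05, where limma-voom called 5 up. The 8 neutrophil markers were higher in SUV-OE in 8 of 8, with sums of 748.9 and 2371 in the controls against 6629 and 8076 in SUV-OE. Limma called 1, Ltf, with 8 at an unadjusted p under 0.05, where 20.7% of all tested genes were. Limma-voom called 6. SUV-OE replicate 3 was above replicate 2 in 7 of 8. Sums of the 8 monocyte and macrophage markers ranged from 151.1 to 210.4 in control and from 212.2 to 215.5 in SUV-OE, none of these markers was at 0, and limma called 0 (4 at an unadjusted p under 0.05) and limma-voom 1. The 8 erythroid markers summed to 14.6 and 139.3 in the controls against 98.2 and 68.5 in SUV-OE, with none at 0, 0 DEGs by limma (3 at an unadjusted p under 0.05) and 2 by limma-voom. The 8 T and NK markers, nearly all of them Nkg7, summed to 73.7 and 113.2 in the controls against 77.8 and 83.9 in SUV-OE. Cd3e, Cd3g, Cd8a and Ncr1 were at 0 in at least 1 library. Limma and limma-voom each tested 2 of these markers and called 0. The 8 stromal and endothelial markers summed to 17.9 and 24.8 in the controls against 72.9 and 66.0 in SUV-OE. Most of this was Pecam1, which leukocytes also express, and Emcn was at 0 in a library. Limma tested 1 of the 8 and called it, and limma-voom tested 7 and called 1. The part of any of these cell types in the heat-shock values was not tested.

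**Figure D5:**
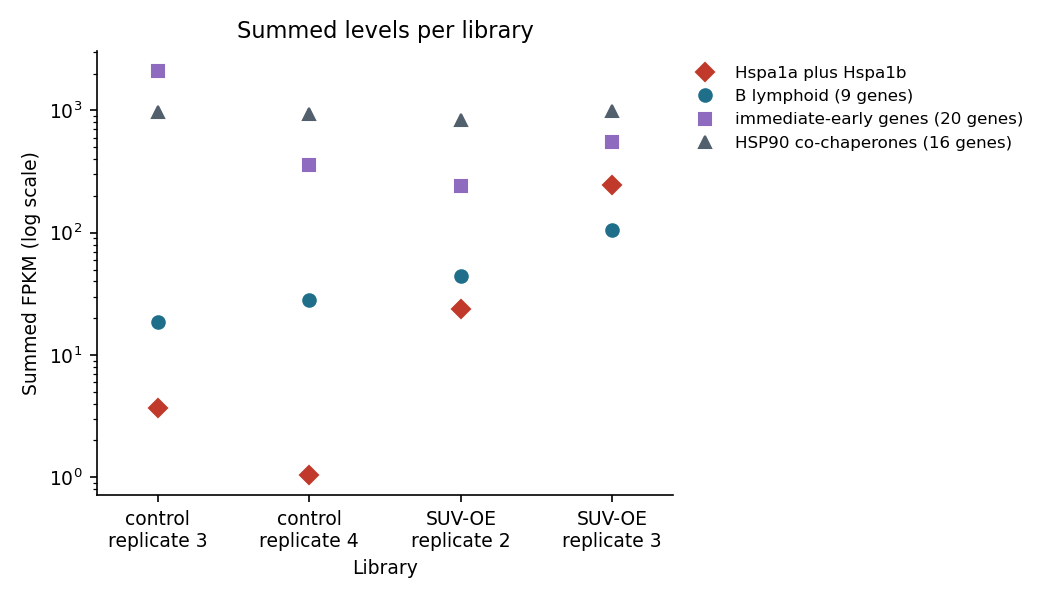
Summed FPKM per library on a log axis for Hspa1a plus Hspa1b (diamonds), 9 B lymphoid markers (circles), 20 immediate-early genes (squares) and 16 HSP90 co-chaperones (triangles). Most of the B lymphoid sum in the controls is Cd79b. Hspa1a plus Hspa1b runs from 1.04 in control replicate 4 to 243.8 in SUV-OE replicate 3, the immediate-early genes are highest in control replicate 3, and the co-chaperones stay between 832.2 and 994.1.

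As a profile to compare other genes with, the mean of Hspa1a, Hspa1b, Hsph1 and Dnajb1, 4 genes picked with their values known and centred for each gene on the log2(FPKM + 1) scale, was -0.91 and -1.43 in the controls against -0.01 and 2.35 in SUV-OE. It is mainly that of Hspa1a and Hspa1b, since Dnajb1 differed least among the 4 and had its lowest library in SUV-OE. Outside the chaperone lists, the 4 tested genes with the smallest Euclidean distance to it over the 4 libraries were Mzb1 (0.76), Rag1 (0.80), Igll1 (0.89) and Ighv11-2 (0.89). Rag1, which encodes a recombinase of antigen receptor genes, had an FPKM of 0.0700 and 0.144 in the controls against 2.09 and 7.32 in SUV-OE. Igll1, a surrogate light chain gene, had 0.166 and 0.411 in the controls against 4.11 and 15.3 in SUV-OE. The order of the libraries in these genes follows from how they were picked, and the likeness is a description.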

How the data were processed

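Total RNA of enriched c-Kit+ cells was sequenced from TruSeq v2 libraries, which do not mark strand. The submitters' processing notes name CASAVA 1.8, TopHat2 and mm10, and the study's methods name Cufflinks for the FPKM. The deposited table holds 1 FPKM value for each gene in each library. The annotation release is not given in the sources used here. The 10 genes and all gene lists were chosen with earlier results of these data known. The study called DEGs with a count model. FPKM are not counts and were tested by limma 3.58.1 (R 4.3.3) on log2(FPKM + 1), with an intensity trend and all 4 libraries, for 13736 genes whose FPKM averaged 0.5 or more.

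Reads were recovered from the FPKM steps at GENCODE M21 exon lengths. For 78.5% of genes all 4 values were whole within 0.01, as a count over exons gives and Cufflinks estimates need not; those of Hspa8, Dnajb1, Cryaa, Cryab, Hsf1 and Hsf2 were not and are estimates. limma-voom took genes averaging 10 reads or more. The floor of 3 reads only converts reads to FPKM and measures no error between libraries. The scripts were tested on simulated data. Genes were named by rule: the 10 genes, the highest and lowest fold change and any adjusted p under 0.05 of each chaperone, factor, immediate-early and marker list, Hsf1, Hsf2, Suv39h1 and the 5 nearest profiles, of which 1 is not reported here. Marker genes are reported mainly as list sums, and other names came after their values were seen. Alternatives were a pseudocount of 0.1, other filters, quantile and median-of-ratios scaling, no trend, any fold change, limma-voom and leaving out each library. Shared 100-base windows were counted over GENCODE M21 transcripts, 1 per listed gene. Figures were drawn with matplotlib 3.10.9.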

Additional observations from a re-analysis of the deposited data

How the results depend on the processing

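No paired analysis was possible because control and SUV-OE have no replicate number in common except 3. The count of 0 DEGs among the 10 genes stayed at 0 under every alternative run, which with 2 libraries per group says little about stability. Over all tested genes the 168 DEGs became 0 without the filter (4177 at an unadjusted p under 0.05 by limma) and 675 with limma-voom, and leaving out a library gave 0 to 0 (1146 to 3895 at an unadjusted p under 0.05), the lone library being assumed to vary like the other group. Among the other chaperone genes, the count of 1 became 0 without the filter and 3 with limma-voom, and leaving out a library gave 0 to 0. The cause of these changes was not tested. Low genes moved with limma-voom and with a pseudocount of 0.1: Hspa1a from 3.72 to 5.04 and 4.86, Hspa1b from 4.54 to 5.31 and 5.24, and Hspb1 from 1.24 to 2.50 and 2.22. Fold changes of Hspa1a, Hspa1b, Hsph1 and Dnajb4 kept their sign in all 10 alternatives and that of Hspb1 in all 9 that tested it, while Hspa8, Hsp90aa1, Hsp90ab1, Dnajb1 and Hspe1 changed sign in 2 each, always when a library was left out. Leaving out control replicate 3 gave -0.24 for Hspe1 and -0.02 for Hsp90aa1. Leaving out control replicate 4 gave -0.22 for Dnajb1, -0.12 for Hsp90ab1 and 0.01 for Hspa8. Values below about 0.2 FPKM rest on few reads.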
